A study of Mus musculus with 7 samples.

Results

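Long noncoding RNAs are transcripts that are not translated, and many of them stay in the nucleus. Described here are 10 genes known for such RNAs in the dorsal root ganglia, which hold the cell bodies of sensory neurons next to the spinal cord, of mice with an injured sciatic nerve. They were chosen by symbol (Malat1, Neat1, Meg3, Rian, Mirg, Miat, Snhg11, Gas5, Snhg1 and Kcnq1ot1), with earlier results of these data known. All 10 were found among the 54309 genes of the table. The annotation used here, GENCODE M21, gives 9 of them a noncoding biotype and lists Snhg11 as protein-coding. The samples were lumbar (L4-6) ganglia of male C57bl/6 mice aged 6-8 weeks, dissociated with enzymes and enriched for neurons on an albumin gradient. In the ZT20 group (4 samples) and the ZT8 group (3 samples), injury and dissection 72 h later fell at Zeitgeber time 20 or 8, counted in hours from lights on. The ganglia of both groups came from injured mice. The series asks how clock time tunes axonal regeneration, and the comparison here asks whether these RNAs differed between the clock times. The labels do not say which animals each sample came from, so p-values measure the spread between these samples only.

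The members fall into several families. Malat1 is a component of nuclear speckles, the bodies that hold splicing factors, and its mature 3′ end is a triple helix in place of a poly(A) tail. Neat1 is the scaffold of paraspeckles, which only its long isoform builds. Meg3, Rian and Mirg lie in a row in the imprinted Dlk1-Dio3 region and are expressed from the maternal copy. Rian carries C/D-box small nucleolar RNAs (snoRNAs, guides for RNA modification) and Mirg carries many microRNAs. Gas5, Snhg1 and Snhg11 host snoRNAs in their introns, and the spliced Gas5 and Snhg1 RNAs are known substrates of nonsense-mediated decay. Miat, also called Gomafu, is a nuclear RNA of neurons, and Kcnq1ot1 is an antisense RNA that silences neighbouring genes on the paternal copy of the Kcnq1 domain.

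The promoters of Meg3 and Gas5 are shown because both RNAs were higher at ZT20 and because only these members carried a full cyclic AMP response element (CRE, TGACGTCA). Sequences are from RefSeq (GRCm38.p6) and cover a window around an annotated start, with the CRE in capitals. The Meg3 promoter lies at chr12:109540746-109541045 on the + strand, and the second of the 2 Gas5 promoters in the table lies at chr1:161034916-161035215 on the + strand.
Meg3: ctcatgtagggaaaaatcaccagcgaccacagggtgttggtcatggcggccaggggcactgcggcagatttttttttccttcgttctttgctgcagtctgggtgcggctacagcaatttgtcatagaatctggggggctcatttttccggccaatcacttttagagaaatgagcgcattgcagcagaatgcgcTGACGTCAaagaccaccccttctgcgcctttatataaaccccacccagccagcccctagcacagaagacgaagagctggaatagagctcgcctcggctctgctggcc
Gas5: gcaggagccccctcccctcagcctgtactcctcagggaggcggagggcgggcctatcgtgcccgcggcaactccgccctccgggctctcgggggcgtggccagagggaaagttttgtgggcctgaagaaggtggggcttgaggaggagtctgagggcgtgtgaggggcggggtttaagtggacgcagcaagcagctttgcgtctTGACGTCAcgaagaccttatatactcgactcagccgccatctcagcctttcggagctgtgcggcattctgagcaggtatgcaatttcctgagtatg
The first base of the CRE lay 57 bases before the annotated start of Meg3 and 46 bases before that of Gas5. RefSeq promoters were matched for 9 members (11 promoters), and Neat1 had no entry in the table. Both strands were searched for 4 further motifs. The CRE occurred in 1.79% of the 32851 promoters of the table. Its half-site TGACG, which the full CRE contains, occurred in 20.8% of them and in promoters of 4 members (Malat1, Meg3, Gas5 and Kcnq1ot1). The circadian E-box CACGTG (7.15% of promoters) and the D-box TTATGTAA or TTACGTAA (1.06%) were in 0 of the 11 member promoters, and the RORE core AGGTCA (16.3%) was in the second promoter of Meg3 only. The Mirg window contains the sequences of miR-668-5p and miR-485-3p, microRNAs within Mirg, so it need not be a promoter in use. A match or its absence in these windows describes the letters and no binding.

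Rian and Mirg matter as hosts, so mature microRNAs from within them are shown with the seed (bases 2 to 8) in capitals. The sequences are from RefSeq (GRCm38.p6).
miR-370-3p, in Rian: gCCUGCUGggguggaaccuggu
miR-134-5p, in Mirg: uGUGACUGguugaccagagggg
miR-410-3p, in Mirg: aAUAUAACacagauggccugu
The 3 seeds differ from each other. miR-134 is known for its part in the growth of dendritic spines. In the annotation, 53 microRNA and snoRNA genes lay within members on the same strand, and 46 of them had a row in the table. Of these, 37 were listed at 0 in all 7 samples, including all 14 microRNA genes of Mirg, 7 were above 0 in a single sample, and 2 in more. The hosted small RNAs were thus almost absent from the table, and the results below concern the host transcripts.

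Values are in TPM (transcript abundance scaled within each sample), which divide by transcript length and have the same sum in every sample, so levels of different genes can be compared and sequencing depth is unknown. The number of genes above 0 TPM was 24192 to 25238 at ZT20 and 18297 to 22973 at ZT8, and ZT8 replicate 2 had the fewest. Against the male label, the sum of the Y-linked genes Uty, Kdm5d, Ddx3y and Eif2s3y was only 0.0162 TPM for ZT20 replicate 3 and 0.00868 TPM for replicate 4, where the X-linked long noncoding RNA Xist was at 2.21 and 2.30 TPM. ZT20 replicate 2 held both, with 33.1 TPM of the Y-linked genes and 1.08 TPM of Xist, and the ZT8 samples were at 61.1 to 84.6 TPM of the Y-linked genes. All 15 neuronal markers were above 0 in every sample, with summed levels of 20694 to 25338 TPM at ZT20 and 15664 to 22936 TPM at ZT8. The 8 satellite glia markers were also above 0 in every sample, and their sum was 7586 to 9280 TPM at ZT20 and 12876 to 15604 TPM at ZT8, with no overlap. All 7 Schwann cell myelin, 9 macrophage, 9 fibroblast and vessel, and 5 erythroid markers were above 0 in every sample too, with overlapping sums. Of 9 plasma and B cell markers, 6 were above 0 throughout. Their sum was 270 to 493 TPM at ZT20 and 503 to 945 TPM at ZT8. Library identifiers were numbers at ZT20 and letters at ZT8, so an effect of what these schemes mark and one of the clock time cannot be told apart.

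The members spanned 4 orders of magnitude, so not all of them were abundant. By mean TPM over the 7 samples, Malat1 ranked 13th and Meg3 198th of all genes. Snhg11, Rian and Gas5 followed at ranks 1298, 2172 and 2837. Neat1 (rank 9213), Miat (9236), Mirg (9311) and Snhg1 (10181) were at 5.12 to 7.01 TPM, and Kcnq1ot1 at 0.413 TPM ranked 17258th. At ZT20 the ranges of Malat1, Meg3 and Snhg11 did not overlap their next neighbour in the order, except that Snhg11 overlapped Rian. Rian (121 ± 20.6 TPM, SD, n = 4) lay wholly above Gas5 (77.9 ± 16.1 TPM, SD, n = 4) in the ZT20 group. At ZT8 Rian (46.4 ± 5.16 TPM, SD, n = 3) and Gas5 (46.1 ± 6.30 TPM, SD, n = 3) overlapped. Mirg, Miat and Neat1 overlapped each other at both times, and at ZT8 Snhg1 overlapped Neat1. Together the 10 members took 0.524% to 0.717% of the summed TPM in ZT20 samples and 0.367% to 0.550% in ZT8 samples. Whether the RNAs were nuclear was not measured, since whole cells were sequenced.

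**Figure D1:**
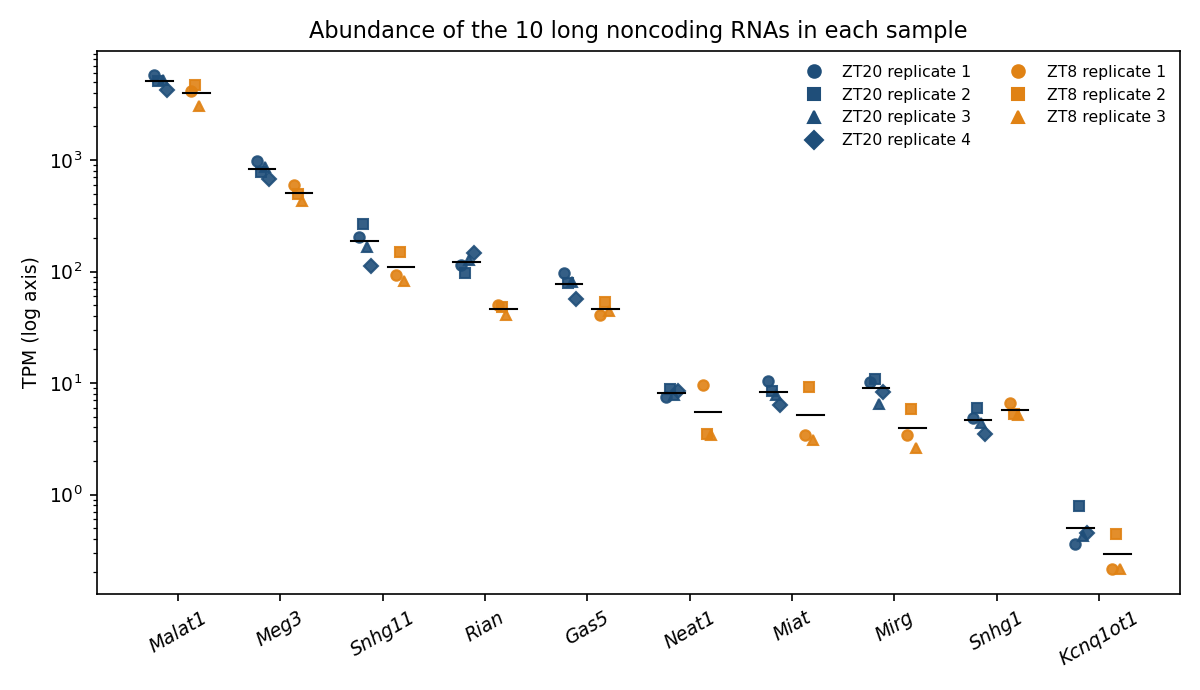
TPM of the 10 long noncoding RNAs (log axis) in 4 ZT20 and 3 ZT8 samples, ordered by mean TPM; points are samples, marker shapes are replicate numbers and horizontal bars are group means. Meg3, Rian, Mirg and Gas5 have all ZT20 points above all ZT8 points, and Snhg1 has the higher mean at ZT8.

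Of the 9 members that could be tested, 4 rose at ZT20 and 0 fell. Rian rose most (log2 difference 1.35), followed by Mirg (1.05), Gas5 (0.73) and Meg3 (0.71). Rian, Mirg and Meg3 lie in the same imprinted region, so the 4 calls do not stand for 4 separate loci. Differences were fitted with limma on log2(TPM + 1) over the 14800 genes whose mean reached 1 TPM, with Benjamini-Hochberg adjustment and a threshold of 0.05. Kcnq1ot1 was under that minimum. Over all tested genes 16.4% were called, 12.8% as higher and 3.61% as lower at ZT20. Since the members were chosen with earlier results of these data known, their count is not independent of these values. The ZT20 values lay wholly above the ZT8 values for 24.5% of tested genes and wholly below for 8.72%, against the same 4 members and 0 members. Tested genes as a whole had a median log2 difference of 0.23, and 8 of the 9 members were positive against 66.4% of all tested genes. Median-ratio scaling between samples moved the median to 0.033 and the share of calls that were higher at ZT20 from 78.1% to 49.3%, and then Rian alone of the members passed. Quantile normalization gave a share of 55.7%, with Rian and Meg3 past the threshold. Without ZT20 replicates 3 and 4 limma called 0 of the 14800 genes (2425 at an unadjusted p under 0.05), and 8 of the 9 members were again positive. With ZT20 replicate 2 left out as well, 0 genes were called again (1133 at an unadjusted p under 0.05), with the lone ZT20 sample assumed to vary like the ZT8 group. The members' count has to be read against the share of genes called in each alternative fit. It was 1 of 10 beside 3.69% of genes without a filter, 4 of 9 beside 22.2% at a minimum of 5 TPM, and 5 of 9 beside 26.3% with array weights. With the replicate number as a block it was 4 beside 7.93%, and 1 beside 3.2% when length and GC content were corrected too. It was 1 without ZT20 replicate 1 (7.6% of genes called) or replicate 3 (4.22%), and 3 without ZT20 replicate 4 (5.53%). Without ZT20 replicate 2 the count was 2 (12.1%). Without ZT8 replicate 1 it was 3 (15.5%), without ZT8 replicate 2 it was 5 (20.6%) and without ZT8 replicate 3 it was 1 (11.3%).

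Rian, the snoRNA host in the middle of the Dlk1-Dio3 cluster, measured 114, 97.4, 127 and 146 TPM across ZT20 replicates 1 to 4. The values for ZT8 replicates 1 to 3 were 50.4, 48.1 and 40.6 TPM. Every ZT20 sample was above every ZT8 sample, and the ratio of the group means was 2.61. The log2 difference was 1.35 (SE 0.16, limma adjusted p = 0.00321). Of the 882 tested genes with a long noncoding biotype, 31 had a larger difference. Without ZT20 replicates 3 and 4 the difference of Rian was 1.17 (limma adjusted p = 0.107), and with ZT20 replicate 1 as the only ZT20 sample it was 1.28 (limma adjusted p = 0.499).

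Meg3, the first of the 3 in genome order and the most abundant, measured 988, 779, 865 and 682 TPM across ZT20 replicates 1 to 4. The corresponding ZT8 values, replicates 1 to 3, were 592, 495 and 429 TPM. The groups did not overlap, though the gap between ZT20 replicate 4 and ZT8 replicate 1 was smaller than the spread within ZT20. Its log2 difference was 0.71 (SE 0.16, limma adjusted p = 0.0217). It no longer passed without ZT20 replicate 1 (0.62, limma adjusted p = 0.0561), ZT20 replicate 3 (0.69, limma adjusted p = 0.0761) or ZT8 replicate 3 (0.60, limma adjusted p = 0.0593). Without ZT20 replicates 3 and 4 it was 0.81 (limma adjusted p = 0.179).

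Mirg, the microRNA host at the far end, was at 10.2, 10.8, 6.55 and 8.33 TPM at ZT20 and at 3.39, 5.80 and 2.60 TPM at ZT8, in replicate order. The lowest ZT20 sample (replicate 3) and the highest ZT8 sample (replicate 2) lay close to each other. The log2 difference was 1.05 (SE 0.28, limma adjusted p = 0.0361). This call was the least stable of the 4: of the fits that left out 1 sample, only the fit without ZT8 replicate 2 kept it (1.31, limma adjusted p = 0.0108). Without ZT20 replicate 4, for example, the difference was 1.07 (limma adjusted p = 0.0936).

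The protein-coding genes Dlk1, Rtl1 and Dio3 of the same region, which are expressed from the paternal copy, were near 0. Dlk1 was at 0.246 ± 0.238 TPM (SD, n = 4) at ZT20, against 0.0212 ± 0.0368 TPM (SD, n = 3) in the ZT8 group. Rtl1 was at most 0.177 TPM, and Dio3 was above 0 only in ZT20 replicate 1 (0.119 TPM). Begain, upstream of Dlk1, was at 1.06 ± 0.415 and 1.09 ± 1.17 TPM and did not pass (log2 difference 0.13, limma adjusted p = 0.849). Nearly all of the summed TPM of the region's 7 listed genes was thus that of the 3 noncoding members.

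The proportions of the 3 cluster members varied between samples. The log2 ratio of Rian to Meg3 was −3.12, −3.0, −2.77 and −2.22 across ZT20 replicates 1 to 4, against −3.55, −3.36 and −3.40 for the ZT8 replicates 1 to 3. All ZT20 ratios were above all ZT8 ratios, by 0.66 between the group means. This was not tested, and how often ratios of other gene pairs separate the groups was not measured. Such a ratio within a sample does not depend on how samples are scaled to each other. ZT20 replicate 4 had the highest ratio, and without ZT20 replicates 3 and 4 the difference was 0.38. The log2 ratio of Mirg to Meg3 was −6.54 ± 0.378 (SD, n = 4) at ZT20, against −7.08 ± 0.575 (SD, n = 3), and the groups overlapped. The difference of 0.53 was 0.87 without ZT8 replicate 2 and 0.35 without ZT8 replicate 1. By the likeness of their profiles over the 7 samples (root mean square distance of centred log2 values, 10267 genes compared), Meg3 was 1338th and Mirg 1346th from Rian. The genes nearest to Rian were Akap10, Adam23 and Akap6, at distances of 0.0762, 0.0833 and 0.0858. Gas5 was closer to Meg3 (132nd) than Rian (4208th) or Mirg (3284th) were.

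**Figure D2:**
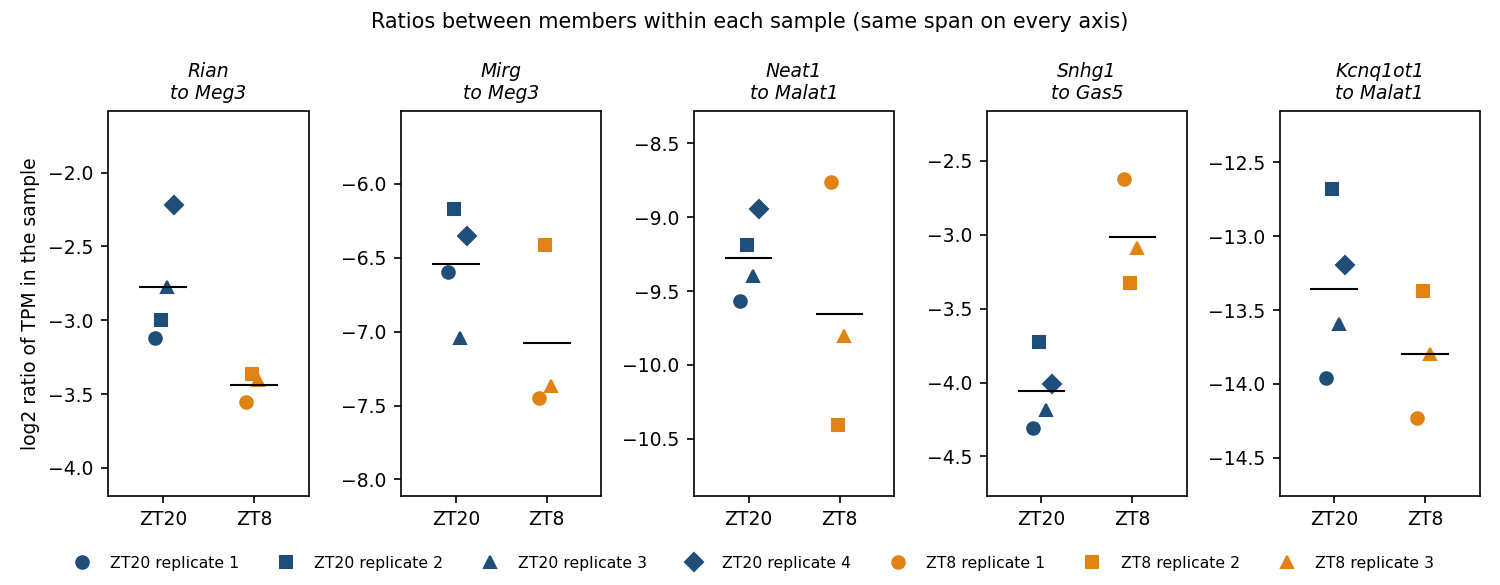
log2 ratio of TPM between pairs of members in each sample, with points for samples, marker shapes for replicate numbers and bars for group means; every vertical axis spans the same number of log2 units. Rian to Meg3 is higher and Snhg1 to Gas5 lower in all ZT20 samples than in all ZT8 samples, and the other 3 ratios overlap.

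Gas5, a snoRNA host known to accumulate in arrested cells, rose at ZT20, and the fellow hosts Snhg1 and Snhg11 did not pass the test. Gas5 measured 96.0, 78.7, 80.1 and 56.8 TPM across ZT20 replicates 1 to 4, against 41.0, 53.1 and 44.1 TPM for the ZT8 replicates 1 to 3. The groups did not overlap, and ZT20 replicate 4 lay just above ZT8 replicate 2. Its log2 difference was 0.73 (SE 0.19, limma adjusted p = 0.0339). It kept its call without ZT20 replicate 4 (0.87) or ZT8 replicate 2 (0.83) and lost it when any other single sample was left out (0.62 to 0.72, limma adjusted p = 0.0708 to 0.101). Without ZT20 replicates 3 and 4 it was 0.91 (limma adjusted p = 0.154).

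Snhg1 was at 4.85, 5.95, 4.41 and 3.52 TPM at ZT20 and 6.66, 5.30 and 5.18 TPM at ZT8, in replicate order. The groups overlapped, and the log2 difference was −0.25 (95% interval −0.76 to 0.26, limma adjusted p = 0.449). It was −0.15 without ZT20 replicate 4 or ZT8 replicate 1, −0.35 without ZT20 replicate 2 and −0.58 under quantile normalization. The log2 ratio of Snhg1 to Gas5 was −4.31, −3.73, −4.18 and −4.01 across ZT20 replicates 1 to 4, against −2.62, −3.32 and −3.09 for the ZT8 replicates 1 to 3. The ratio was lower in all ZT20 samples, by 1.05 between the group means (no test was made, and other gene pairs were not measured). Snhg11, a neuronal host gene, was at 204, 268, 165 and 112 TPM at ZT20 and 93.6, 151 and 81.8 TPM at ZT8. Its groups overlapped, and it did not pass (log2 difference 0.76, 95% interval 0.060 to 1.46, limma adjusted p = 0.119).

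Among 19 further snoRNA host genes, 17 were tested and 1 passed, higher at ZT20. That gene was Snhg6, at 16.5 ± 4.98 TPM (SD, n = 4) in the ZT20 group, against 4.88 ± 2.19 TPM (SD, n = 3), with a log2 difference of 1.61 (limma adjusted p = 0.0153). Snhg14, the long host of the Prader-Willi region, had the next largest difference (1.11, limma adjusted p = 0.139), and Snhg16 (−0.75) and Snhg10 (−0.35) the lowest, none of them past the threshold. This 1 of 17 stood beside 12.8% of all tested genes called higher, and the count was 2 without ZT8 replicate 2 and 3 with array weights. The median log2 difference of the 17 was 0.12, against 0.23 over all tested genes, and it turned negative under median-ratio scaling (−0.072) and quantile normalization (−0.21). It was above the median of all tested genes without ZT8 replicate 2 (0.36 against 0.15) and under the length and GC correction (0.19 against 0.039). It was 0.039 without ZT20 replicate 1, 0.052 without ZT20 replicate 3, and 0.23 without ZT20 replicate 2 or 4. Of 10 factors of nonsense-mediated decay, all tested, 1 rose, a share near the 12.8% of all tested genes. This was Upf2, a bridging factor of the decay complex (log2 difference 0.95, limma adjusted p = 0.0195). The median of the 10 was 0.61, Upf3b had the largest difference (0.97, limma adjusted p = 0.0723), and Upf3a (−0.034) and Smg8 (0.049) had the smallest. None of the 10 passed without ZT20 replicate 1, 3 or 4 (0 calls each), whereas 2 were higher without ZT8 replicate 1 or 2 and 5 with array weights. The median fell to 0.17 under the length and GC correction.

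Malat1 and Neat1, which are neighbours in the genome, did not pass the test. Malat1 measured 5731, 5143, 5241 and 4213 TPM across ZT20 replicates 1 to 4, against 4130, 4725 and 3057 TPM for the ZT8 replicates 1 to 3. The groups overlapped, because ZT8 replicate 2 was above ZT20 replicate 4. The log2 difference was 0.37 (95% interval −0.020 to 0.76, limma adjusted p = 0.162). Without ZT8 replicate 3 it was 0.19 (limma adjusted p = 0.373), and without ZT8 replicate 2 it was 0.51 (limma adjusted p = 0.0691). A gene of uncertain status annotated on the opposite strand within Malat1, Gm37376, was at 4748 ± 588 TPM (SD, n = 4) in the ZT20 group, against 3689 ± 868 TPM (SD, n = 3). It was the gene most like Malat1 over the samples, at a distance of 0.0386. Whether the counting used strand is not stated, so reads of this pair cannot be told apart and the level of Malat1 is uncertain. The genes annotated opposite Miat (Gm26953) and Gas5 (Zbtb37) were under 1 TPM in all 7 samples.

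Neat1 was at 7.54, 8.83, 7.76 and 8.55 TPM at ZT20 and at 9.51, 3.48 and 3.41 TPM at ZT8, in replicate order. ZT8 replicate 1 was the highest of all 7 samples, whereas the other ZT8 samples were the lowest. The log2 difference was 0.63 (95% interval −0.093 to 1.35, limma adjusted p = 0.194). Without ZT8 replicate 2 it was 0.43 (limma adjusted p = 0.380), and without ZT8 replicate 3 it was 0.42 (limma adjusted p = 0.402). Without ZT8 replicate 1 it was 1.04 and passed (limma adjusted p = 0.0232). That sample also had the highest sum of macrophage markers, 478 TPM against 149 to 213 TPM in the other 6 samples, and the part of these cells in the Neat1 value was not tested. The log2 ratio of Neat1 to Malat1 overlapped between the groups, at −9.27 ± 0.270 (SD, n = 4) and −9.66 ± 0.832 (SD, n = 3).

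Among 12 paraspeckle proteins, all tested, 2 rose and 1 fell, beside 12.8% and 3.61% of all tested genes. Sfpq, which binds Neat1 as a core paraspeckle protein, was at 13.1 ± 1.78 TPM (SD, n = 4) at ZT20, against 7.08 ± 0.422 TPM (SD, n = 3) in the ZT8 group (log2 difference 0.80, limma adjusted p = 0.0216). Matr3, a nuclear matrix protein, also rose (limma adjusted p = 0.0264). The cold-inducible RNA-binding protein Rbm3 fell by 0.53 on the log2 scale (limma adjusted p = 0.0270), and Hnrnpk was at −0.099. Among 10 nuclear speckle proteins, 2 rose, Srsf2 (log2 difference 1.26, limma adjusted p = 0.0444) and the speckle scaffold Son (0.94, limma adjusted p = 0.0067). Without ZT20 replicate 3, 0 paraspeckle proteins passed, and without ZT20 replicate 1, 2 or 4 or ZT8 replicate 3, 1 passed. Of the speckle proteins 1 passed when ZT8 replicate 1 or any single ZT20 replicate was left out, and with array weights 3 were higher and 1 lower. The lowest 2 of the speckle list, Srsf7 (−0.33) and Srsf3 (−0.22), did not pass. The medians were 0.31 for paraspeckle and 0.18 for speckle proteins. The speckle median was 0.29 without ZT20 replicate 1, 0.11 without ZT8 replicate 2 and −0.10 under the length and GC correction. That of the paraspeckle proteins was 0.096 under median-ratio scaling, 0.11 under quantile normalization and 0.13 under the correction.

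Miat was at 10.4, 8.44, 7.88 and 6.41 TPM at ZT20 and at 3.42, 9.15 and 3.07 TPM at ZT8, in replicate order. ZT8 replicate 2 lay within the ZT20 range and the other ZT8 samples far under it. The log2 difference was 0.69 (95% interval −0.078 to 1.46, limma adjusted p = 0.182). Without ZT8 replicate 2, the sample with the fewest genes above 0, it was 1.11 and passed (limma adjusted p = 0.0126). Without ZT8 replicate 1 it was 0.51 (limma adjusted p = 0.358), and without ZT8 replicate 3 it was 0.45 (limma adjusted p = 0.390).

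Kcnq1ot1 was at 0.360, 0.784, 0.423 and 0.450 TPM at ZT20 and 0.215, 0.445 and 0.215 TPM at ZT8, in replicate order. The groups overlapped, and replicate 2 was the highest in each group. In the fit without a filter its log2 difference was 0.22 (limma adjusted p = 0.447), a scale on which differences of genes under 1 TPM are strongly understated. Of 11 genes of the Kcnq1 domain, 8 were tested and 1 rose, a share near the 12.8% of all tested genes. That was Osbpl5, an oxysterol-binding protein gene, at 13.2 ± 1.09 TPM (SD, n = 4) in the ZT20 group, against 6.13 ± 2.42 TPM (SD, n = 3), with a log2 difference of 1.05 (limma adjusted p = 0.0243). No gene of the domain was called under quantile normalization or the length and GC correction, or without ZT20 replicate 1, 3 or 4 or ZT8 replicate 3 (0 calls each). Without ZT8 replicate 2 there were 1 higher and 2 lower, under median-ratio scaling 1 higher and 1 lower, and with array weights 2 higher and 2 lower. Slc22a18 (0.54, limma adjusted p = 0.0533) and the growth inhibitor Cdkn1c (−0.64, limma adjusted p = 0.373), a gene silenced by Kcnq1ot1, did not pass. Kcnq1, which Kcnq1ot1 overlaps on the opposite strand, was at 0.894 ± 0.438 and 0.343 ± 0.324 TPM and not tested. The domain genes Tspan32 (0.16), Nap1l4 (0.0063), Phlda2 (−0.30), Cd81 (−0.31) and Tssc4 (−0.40) did not pass either, and Ascl2 was under 1 TPM.

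**Figure D3:**
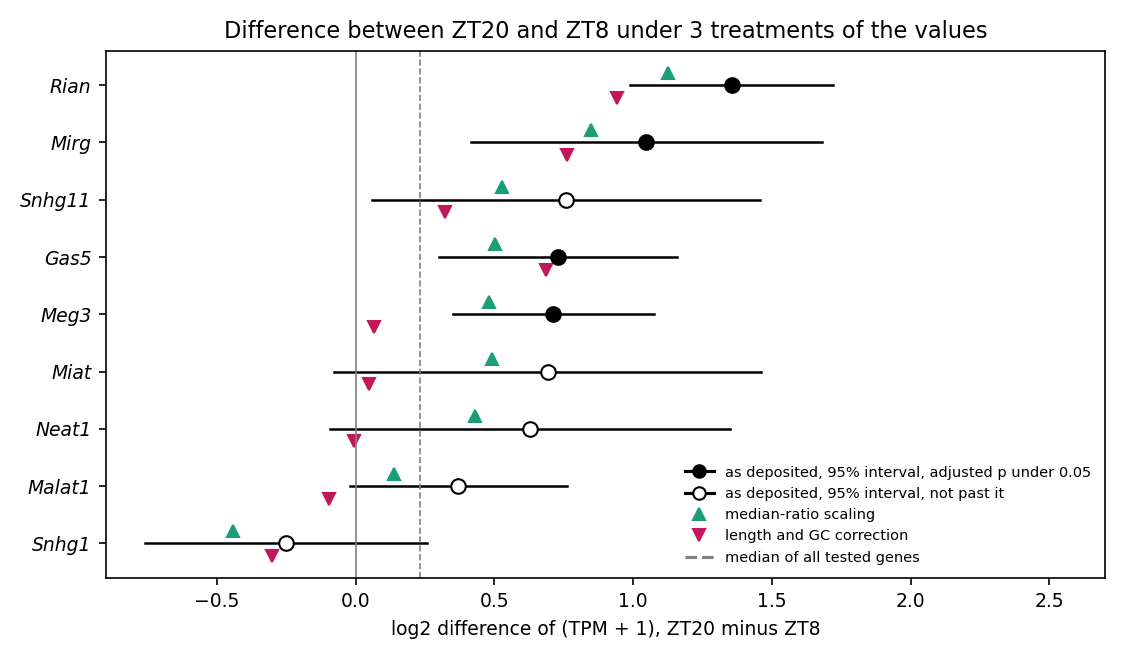
log2 difference (ZT20 minus ZT8) of the 9 tested members with its 95% interval from limma (circles, filled where the adjusted p is under 0.05), and the same difference after median-ratio scaling and after correction for length and GC content (triangles); the dashed line is the median of all tested genes, 0.23. Rian has the largest difference under all 3, and Meg3 moves from 0.71 to 0.067 under the correction.

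Length has to be read beside these differences, since most tested members are long and long genes as a class were higher at ZT20. Gas5 and Snhg1 are exceptions, in the shorter 5 of the 10 length classes described next. When the 14745 tested genes of known length were ranked by their longest GENCODE M21 transcript and divided into 10 classes of like size, the shortest class had a median log2 difference of −0.027 and the longest one of 0.69, where 36.5% of genes were called higher. Malat1 (6983 nt), Rian (8089 nt), Miat (9163 nt), Meg3 (14548 nt) and Neat1 (20771 nt) were in the longest group, and 2 of these 5 were called. Meg3 was near the median of that group, with 47.2% of its genes at a larger difference. The shares for Neat1, Miat and Malat1 were 54.2%, 49.2% and 71.3%, so Malat1 was below the median of its length class. For Rian only 7.59% of the group had a larger difference. Mirg (3822 nt) was in a group with a median of 0.36 and 13.5% called higher, and 6.58% of that group exceeded it. Gas5 (2556 nt) was in a group with a median of 0.079 and 4.82% called higher, and 8.96% exceeded it. Snhg11 (5864 nt) was in a group with a median of 0.56 and 27.1% called higher, and 33.6% exceeded it. Snhg1 (2728 nt) was low for its group, 82.7% of which had a larger difference.

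Once a smooth dependence on length and GC content had been subtracted within every sample, Rian was the only member that passed (log2 difference 0.94, limma adjusted p = 0.0124), with 8.74% of 14745 genes called. Meg3 was at 0.067 (limma adjusted p = 0.845), Gas5 at 0.69 (limma adjusted p = 0.0667) and Mirg at 0.76 (limma adjusted p = 0.180). Malat1 and Neat1 changed sign, to −0.097 and −0.0051. The longest annotated transcript need not be the one expressed, as for Gas5, whose spliced RNA is shorter than its longest entry. What made long transcripts higher at ZT20 was not tested. The counts of the protein lists moved as well: under this correction 0 of the paraspeckle proteins were higher and 2 lower, and 0 speckle proteins or decay factors passed in either direction. Under median-ratio scaling 0 paraspeckle proteins were higher and 1 lower, 1 speckle protein was called each way, and the median of the speckle list turned negative (−0.047). The log2 difference of Snhg6 was 1.62 under the correction and 1.41 under median-ratio scaling.

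**Figure D4:**
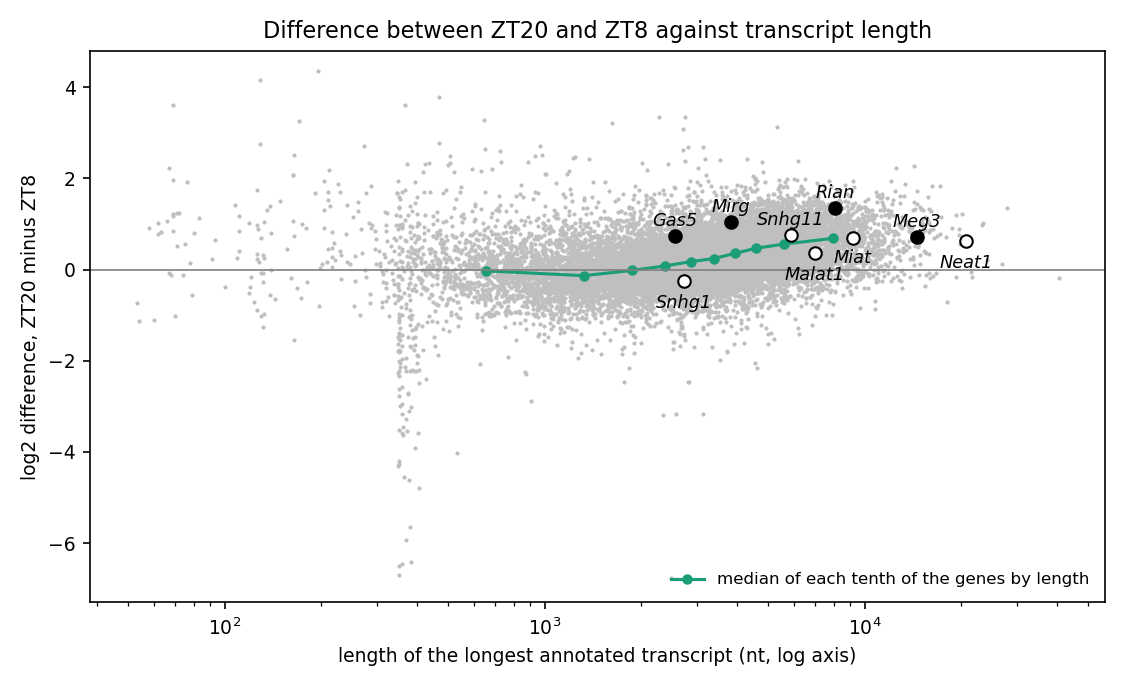
log2 difference (ZT20 minus ZT8) against the length of the longest annotated transcript (log axis) for the tested genes with a known length (grey points), with the median of each of the 10 length classes (green line) and the 9 tested members (circles, filled where the adjusted p is under 0.05). Rian, Mirg, Gas5 and Snhg11 lie above the median of their length class, Meg3, Miat and Neat1 near it, and Malat1 and Snhg1 below it. The line ends at 7971 nt, to the left of Rian, Miat, Meg3 and Neat1.

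Markers of cell types moved with the groups as well, and their part in the members' differences was not tested. Of the satellite glia markers, 3 of 8 were lower at ZT20 and 0 higher, and of the neuronal markers 5 of 15 were higher and 0 lower, beside 3.61% and 12.8% of all tested genes. Under the length and GC correction 2 neuronal markers were higher, and their median log2 difference went from 0.38 to 0.16, while 3 satellite glia markers were again lower. Without ZT8 replicate 2 the neuronal median was 0.13, with 5 markers higher. The satellite glia count was 1 without ZT20 replicate 3. Of the 9 macrophage markers 1 was lower and 0 higher, namely C1qa, which fell by 1.17 on the log2 scale (limma adjusted p = 0.0253). Of 6 plasma and B cell markers tested 1 was lower and 0 higher, namely Mzb1, which fell by 2.88 (limma adjusted p = 0.0432). There were 0 macrophage calls without ZT20 replicate 1, 3 or 4, and the median of that list went from −0.21 to 0.053 without ZT8 replicate 1, to −0.50 without ZT8 replicate 2 and to −0.49 without ZT8 replicate 3. Among the fits that left out 1 sample, the plasma and B cell list had a call only without ZT20 replicate 2. The 5 erythroid markers were all positive with a median log2 difference of 0.96, and 0 were called. Without ZT8 replicate 2, the sample with the highest erythroid sum (9534 TPM), 4 of 5 were higher with a median of 1.67, and with array weights 4 were higher. Without ZT8 replicate 3 the median was 0.33, with 4 positive. In bulk samples, fewer cells of a type and less RNA per cell cannot be told apart. A score of neuronal minus other markers was 4.91 to 5.38 at ZT20 and 4.23 to 4.89 at ZT8, with no overlap. With this score as a covariate, limma called 0 of 14800 genes (2096 at an unadjusted p under 0.05). Since the score separated the groups, this fit cannot tell the cell mix from the clock time. The SE of Rian grew from 0.16 to 0.27 in it. The difference of Rian was then 1.63 (limma adjusted p = 0.0935), that of Mirg 1.41 (0.260), that of Meg3 0.72 (0.328) and that of Gas5 0.45 (0.580).

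Other long noncoding RNAs moved in both directions. Of 29 listed, 25 were in the table and 15 tested, of which 3 rose and 1 fell. The count of those that rose was 0 under the length and GC correction, 1 under median-ratio scaling, and 1 without ZT20 replicate 1, 3 or 4. The count that fell was 1 under both of the first settings and 0 without ZT20 replicate 3 or 4. With array weights 5 rose and 1 fell. Tug1, a widely expressed noncoding RNA, was at 101 ± 21.7 TPM (SD, n = 4) at ZT20, against 37.5 ± 24.1 TPM (SD, n = 3) in the ZT8 group (log2 difference 1.56, limma adjusted p = 0.0235). Mir22hg, the host of miR-22, fell by 1.02 on the log2 scale (limma adjusted p = 0.0211). Oip5os1 (0.94) and Cdr1os (0.89) were the others that rose. Ftx had the largest difference after Tug1 (1.00, limma adjusted p = 0.0598) and Sox2ot the next lowest (−0.45, limma adjusted p = 0.144). Of all 882 tested genes with a long noncoding biotype, 7.94% were called higher and 1.36% lower, against 13.4% and 3.84% of 13135 protein-coding genes. Of the genes that flank members, Ralgapb, next to Snhg11, rose (log2 difference 1.16, limma adjusted p = 0.00829), and Slc3a2 and Wdr74 beside Snhg1 (−0.076 and −0.33) did not pass.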

How the data were processed

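RNA sequencing of 7 samples was analysed from a single table, in which the authors deposited TPM for 54309 genes by Ensembl identifier. The submitters' processing notes name FastQC 0.11.9, Trim Galore 0.6.6, Salmon 1.6.0, DESeq2 1.34.0 and the build GRCm39, without their roles. The annotation release and strand setting are not given in the sources used here. The columns had equal sums, and 0 sample columns were left unused. Depth is unknown, so no counting error is given.

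Genes whose mean reached 1 TPM were fitted as log2(TPM + 1) with limma 3.58.1 (lmFit, eBayes with trend, R 4.3.3) over 4 ZT20 and 3 ZT8 samples without covariates. Tests were two-sided with Benjamini-Hochberg adjustment over 14800 genes. On simulated data the procedure recovered 64.5% of 200 genes changed by 1.5 (log2), with 3.73% false calls, and called 0 when none was changed. Every tested member differed by less than 1.5 (Rian, the largest, by 1.35), and the recovery of such smaller differences was not tested. The rate of false calls under a trend with transcript length was not tested. Lengths, biotypes and overlaps came from GENCODE M21, matched for 51484 identifiers, and promoters and microRNAs from RefSeq on GRCm38.p6. No coordinates were converted. Named genes were all members, the 2 ends of each list, both imprinted regions, the annotated neighbours and the 3 nearest profiles among genes of at least 5 TPM. Matr3, Oip5os1 and Cdr1os fall outside that rule and were named after their values were seen, as were the Y-linked genes, Xist and Gm26953. Alternatives were a pseudocount of 0.1, no filter, a minimum of 5 TPM, median-ratio and quantile scaling, a loess correction for length and GC content (span 0.3), the replicate block, a marker covariate, array weights, removal of mitochondrial genes, and leaving out samples. The members and lists were chosen with earlier results of these data known.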

Additional observations from a re-analysis of the deposited data

How the results depend on the processing

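The number of genes past the threshold was 2433 (78.1% higher at ZT20), and 4 of 9 tested members passed. Genes and members numbered 1178 and 1 without a filter, 1288 and 1 once length and GC were corrected, 0 and 0 with the marker score as covariate, and 3899 and 5 with array weights. Median-ratio scaling left 1 member (49.3% of the called genes higher) and quantile normalization 2 (55.7% higher). Without ZT20 libraries 3 and 4, and without libraries 2, 3 and 4, 0 genes and 0 members passed. Leaving out single replicates, genes ran from 624 to 3055 and members from 1 to 5. The lowest count of genes was without ZT20 replicate 3 and the highest without ZT8 replicate 2. Genes numbered 1125 without ZT20 replicate 1 and 819 without ZT20 replicate 4. Malat1 (−0.097) and Neat1 (−0.0051) reversed under the length and GC correction. Rian passed in 17 of 20 alternatives, Meg3 in 10, Gas5 in 7 and Mirg in 5, and each of the 4 was positive in all 20. For these changes the cause was not tested. The replicate block gave 1174 genes and 4 members, with Snhg11 gained (adjusted p = 0.0188) and Mirg lost (adjusted p = 0.0611), and 0 calls among paraspeckle proteins, decay factors and Kcnq1 domain genes, and with the length and GC correction as well it gave 472 and 1. Whether the numbers pair the samples is not stated. Deviations of same-numbered samples correlated at −0.014, 0.15 and 0.083, and 1 of the 3 ZT8 samples correlated best with its own number. So few values cannot decide it. TPM gives no depth, so what depth limits could not be measured, including how certain differences under 1 TPM are, as for Kcnq1ot1.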

Other observations

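Part of the likeness ranking concerns genes that share no list with the members. Over the 7 samples the profiles nearest to Meg3 were those of Chp2, Gm10175 and Rpl39, at distances of 0.0828, 0.0934 and 0.101. Those nearest to Gas5 were Rps26, Cabp1 and 9530059O14Rik (0.11, 0.114 and 0.133), and those nearest to Neat1 were Ggta1, Safb2 and Cactin (0.0906, 0.106 and 0.151). Snhg1 was nearest to Fxyd1, Mettl21a and Nit2, and the 8 other members compared were at least 3809th from it (Kcnq1ot1 was too low to be compared). These are descriptions over 7 samples of 10267 genes, with no test.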
